A study of Rattus norvegicus with 36 samples.

Results

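Grin1, Grin2a, Grin2b and Gria1 encode subunits of the NMDA and AMPA receptors, the ion channels through which glutamate excites neurons. They were chosen by Ensembl gene ID as the rows ENSRNOG00000011726 (Grin1), ENSRNOG00000033942 (Grin2a), ENSRNOG00000008766 (Grin2b) and ENSRNOG00000045816 (Gria1), 4 of the 31546 gene rows counted. The study measured polyA-selected mRNA of the nucleus accumbens in 9 Sprague-Dawley rats aged 8 weeks after place conditioning with cocaine or saline. The labels give 3 rats each to the groups Vulnerable (4 cocaine injections), Non Vulnerable (4 cocaine injections) and Saline (4 physiological serum injections). Cocaine was given intraperitoneally at 20 mg/kg in sessions of 20 min that alternated with saline sessions 6 h apart, and preference was tested a day after conditioning ended. The tissue label names the nucleus accumbens alone, while the extraction protocol names the caudate putamen as well. The series separates cocaine rats by whether they expressed the place preference, but no sample label ties Vulnerable to expressing it. Only cocaine rats were divided by phenotype, so in a comparison with Saline rats the drug and the division cannot be told apart.

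An NMDA receptor is built from obligatory GluN1 subunits, encoded by Grin1, together with GluN2 subunits such as GluN2A (Grin2a) and GluN2B (Grin2b). The GluN2 subunits set how long the channel stays open, and GluN2B is typically prominent early in life while GluN2A increases with maturation. GluA1, encoded by Gria1, is an AMPA receptor subunit that is moved into synapses during plasticity. Cocaine experience is well known to alter glutamate synapses on the projection neurons of the accumbens.

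Each rat was sequenced as 4 technical replicates, which were summed, and totals ran from 41213813 to 64081679 counts per rat. The members took between 1080 and 45108 counts in a rat, so counting error was mostly small beside the spread between rats. Over technical replicates of a rat, the coefficient of variation of a member was at most 7.12%. For Grin2b in Saline rats it was 2.19% to 4.90% between single libraries. The 3.72% between those rats is of counts summed over 4 libraries, so these values cannot be set directly against each other. A chi-square test of the counts within rats gave an unadjusted p under 0.05 in 3 of 36 cases, with a smallest Benjamini-Hochberg adjusted p of 0.0773. All 3 cases were Grin1, whose chi-square per degree of freedom was 1.89, against 0.83 to 1.11 for the other members. Technical replicates of Grin1 varied by at most 2.67%. The rest of the transcriptome differed widely between the cocaine groups, so each count of members is read against the share of all 16029 genes tested. IDs of other genes carry no names in the tables used here. Defining markers of the tissue and its cell types, and the other glutamate receptor genes, were therefore not analysed here.

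Levels are CPM, the usual scaling of counts to a common library total, with library totals scaled by TMM, a method that sets the bulk of genes equal between rats. They can be compared between rats for 1 gene. They cannot be compared between genes, because the lengths of the counted gene models were not used here. A gene is called where the edgeR quasi-likelihood test over all 9 rats gave an adjusted p under 0.05.

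Gria1 and Grin1 mRNA were higher in Vulnerable than in Non Vulnerable rats, by 1.51-fold and 1.36-fold. Of all genes tested, 31.5% were called between these groups, 15.1% as higher in Vulnerable rats. The Grin1 call depended on several single rats, and the Gria1 call on Non Vulnerable rat 3. Gria1 was also lower in Non Vulnerable than in Saline rats, where 14.7% of genes were called, 7.86% as lower. That call too depended on several single rats. Between Vulnerable and Saline rats no member was called, and 0% of all genes were. Grin2a and Grin2b, the GluN2 subunit genes, were called in no comparison. In bulk tissue, fewer cells of a type and less RNA per cell cannot be told apart.

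**Figure D1:**
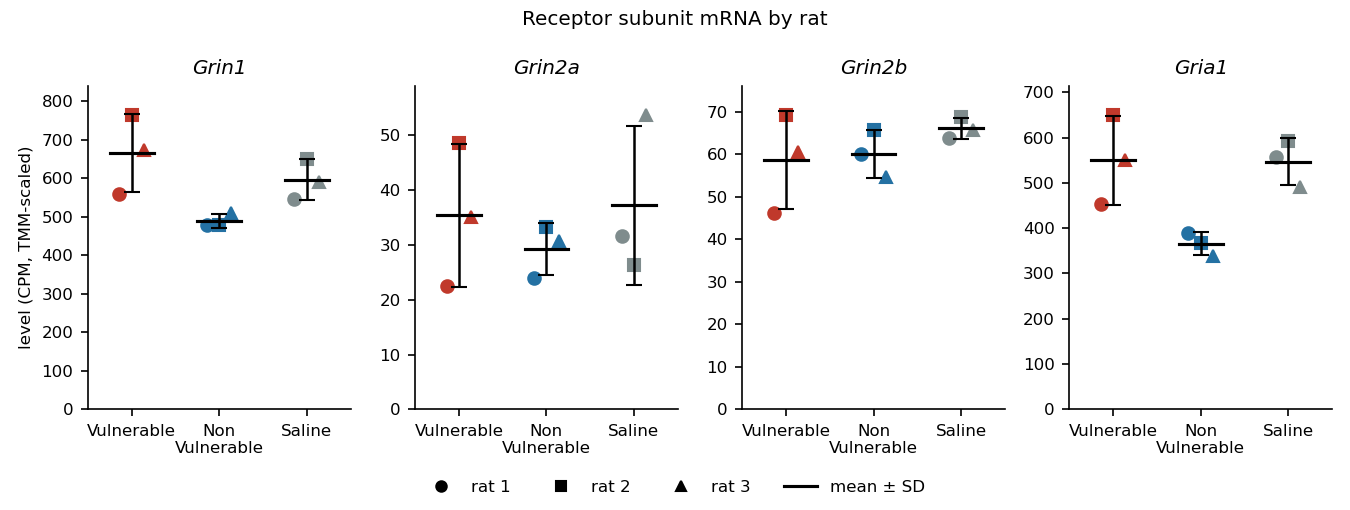
Level of each subunit mRNA (CPM, TMM-scaled, axes starting at 0) in the 3 rats of each group. Symbols mark rat numbers, which were not taken to link rats across groups, and bars the mean ± SD. Gria1 lay between 339 and 389 CPM in the Non Vulnerable rats, below all other rats, while Grin2b overlapped between the cocaine groups.

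Gria1 was measured at 453, 649 and 550 CPM in Vulnerable rats 1 to 3. It stood at 389, 368 and 339 CPM in the Non Vulnerable rats and at 557, 593 and 490 CPM in the Saline rats. All 3 Non Vulnerable rats lay below all 6 others, as they did for 15% of all genes tested, and the Vulnerable and Saline values overlapped. Group means were 551 ± 98.3 CPM in Vulnerable, 366 ± 25.1 CPM in Non Vulnerable and 547 ± 52.2 CPM in Saline rats (SD, n = 3).

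Between the cocaine groups, Gria1 was higher in Vulnerable rats by 0.59 on the log2 scale (SE 0.139, adjusted p = 0.0144 by edgeR, 95% interval 1.21-fold to 1.87-fold). Of all genes tested, 76.8% had an absolute log2 fold change no larger than this. The call ended without Non Vulnerable rat 3, where the log2 fold change was 0.54 (edgeR adjusted p = 0.0518), and held with each other rat left out. It held only narrowly without Non Vulnerable rat 2 (edgeR adjusted p = 0.0496) or Vulnerable rat 2 (edgeR adjusted p = 0.0465). Against Saline rats, Gria1 in Non Vulnerable rats fell by 0.58 on the log2 scale (SE 0.139, edgeR adjusted p = 0.0281), that is, the level fell by 33.1%.

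The call of Gria1 between Non Vulnerable and Saline rats, though not the size of the difference, depended on several single rats. The edgeR adjusted p was 0.0893 and 0.0901 when Non Vulnerable rat 2 or rat 3 was left out. It was 0.0703 when Saline rat 1 was left out and 0.112 for Saline rat 2. The log2 fold changes in those fits were -0.58, -0.53, -0.62 and -0.52, close to the value from all rats. Vulnerable and Saline rats differed in Gria1 by 0.01 on the log2 scale (SE 0.139, adjusted p = 0.993 by edgeR), with a 95% interval from 0.81-fold to 1.25-fold.

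Grin1, the gene of the subunit that every NMDA receptor contains, was measured at 561, 764 and 674 CPM in Vulnerable rats 1 to 3. Its levels were 479, 478 and 510 CPM in Non Vulnerable rats and 546, 652 and 592 CPM in Saline rats. As with Gria1, all 3 Non Vulnerable rats were below all 6 others, the order found in 15% of all genes. The Non Vulnerable rats were also close to each other, at 489 ± 17.9 CPM, against 666 ± 102 CPM in Vulnerable and 596 ± 52.9 CPM in Saline rats (SD, n = 3).

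Vulnerable exceeded Non Vulnerable rats in Grin1 by 0.45 on the log2 scale (SE 0.125, edgeR adjusted p = 0.0267), with a 95% interval from 1.12-fold to 1.66-fold. The call ended when any one of 4 rats was left out. The edgeR adjusted p was then 0.0860 for Vulnerable rat 2 and 0.0594 for its rat 3, and 0.0862 for Non Vulnerable rat 2 and 0.0558 for its rat 3. Log2 fold changes in those fits were 0.34, 0.48, 0.43 and 0.48.

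Non Vulnerable and Saline rats did not overlap in Grin1, but the difference did not pass correction (log2 -0.29, SE 0.124, unadjusted p = 0.0467, edgeR adjusted p = 0.146). Groups did not overlap for 35% of all genes in that comparison and 32.7% had an unadjusted p under 0.05, so neither was unusual. The log2 difference of Grin1 between Vulnerable and Saline rats was 0.16 (SE 0.124, edgeR adjusted p = 0.908, 95% interval 0.919-fold to 1.36-fold).

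The start of the Grin1 gene is shown as reference context, since Grin1 was the 1 member with an entry in the promoter table used, with a GC-rich motif bound by EGR family transcription factors in capitals. The 300 bases run from 250 before to 50 after the annotated gene start (RefSeq, build GRCr8, chr3:28528705-28529004, minus strand), written 5′ to 3′ along the gene.
Grin1: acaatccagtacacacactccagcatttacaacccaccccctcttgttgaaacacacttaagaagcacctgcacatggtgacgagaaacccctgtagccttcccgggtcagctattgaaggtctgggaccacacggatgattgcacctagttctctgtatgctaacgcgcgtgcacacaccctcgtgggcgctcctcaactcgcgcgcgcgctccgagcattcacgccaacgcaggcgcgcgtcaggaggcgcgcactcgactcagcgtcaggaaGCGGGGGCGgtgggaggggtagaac

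The capitals mark the motif GCGGGGGCG, found at positions 276 to 284 of the window, counted from its 5′ end. Both strands were searched, and 2.73% of 33469 RefSeq promoter windows of the same length hold it. The GC box GGGCGG, at positions 280 to 285, overlaps it and occurs in 33.1% of windows. The cyclic AMP response element TGACGTCA, present in 1.83% of windows, had no match in this one. The window is 59.7% G and C, against a median of 51.7% over all windows. These matches describe letters only, and no binding or promoter activity was measured.

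Grin2b, whose subunit gives NMDA receptors slow closing, was measured at 46.2, 69.2 and 60.6 CPM in Vulnerable rats 1 to 3. The Non Vulnerable rats had 60.0, 65.7 and 54.6 CPM and the Saline rats 63.9, 68.7 and 65.6 CPM. The range of the Vulnerable rats contained every Non Vulnerable and every Saline value. The log2 difference of Grin2b was -0.03 for Vulnerable against Non Vulnerable (SE 0.135, edgeR adjusted p = 0.863), with a 95% interval from 0.79-fold to 1.21-fold. It was -0.14 for Non Vulnerable against Saline (SE 0.135, edgeR adjusted p = 0.518) and -0.17 for Vulnerable against Saline rats (SE 0.135, edgeR adjusted p = 0.908). The first of these changed sign under several settings, so its direction was not settled.

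Grin2a, the gene of the subunit that increases as NMDA receptors mature, varied most between rats of a group. The Vulnerable rats had 22.4, 48.6 and 35.1 CPM, with 23.9, 33.2 and 30.6 CPM in Non Vulnerable and 31.7, 26.3 and 53.6 CPM in Saline rats. All 3 groups overlapped, and the coefficient of variation was 37.0% in Vulnerable, 16.5% in Non Vulnerable and 38.9% in Saline rats. Technical replicates of Grin2a varied by 1.79% to 7.12% within a rat. Differences between animals and between their dissections or RNA preparations cannot be told apart here.

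For Grin2a, the log2 value of Vulnerable minus Non Vulnerable rats was 0.27 (SE 0.318, adjusted p = 0.53 by edgeR, 95% interval 0.734-fold to 1.99-fold). Non Vulnerable against Saline rats gave -0.35 (SE 0.319, edgeR adjusted p = 0.486), and Vulnerable against Saline rats gave -0.07 (SE 0.317, edgeR adjusted p = 0.981). With SEs more than 2 times those of the other members, a difference in Grin2a as large as that of Gria1 was within these intervals for the first 2 comparisons.

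**Figure D2:**
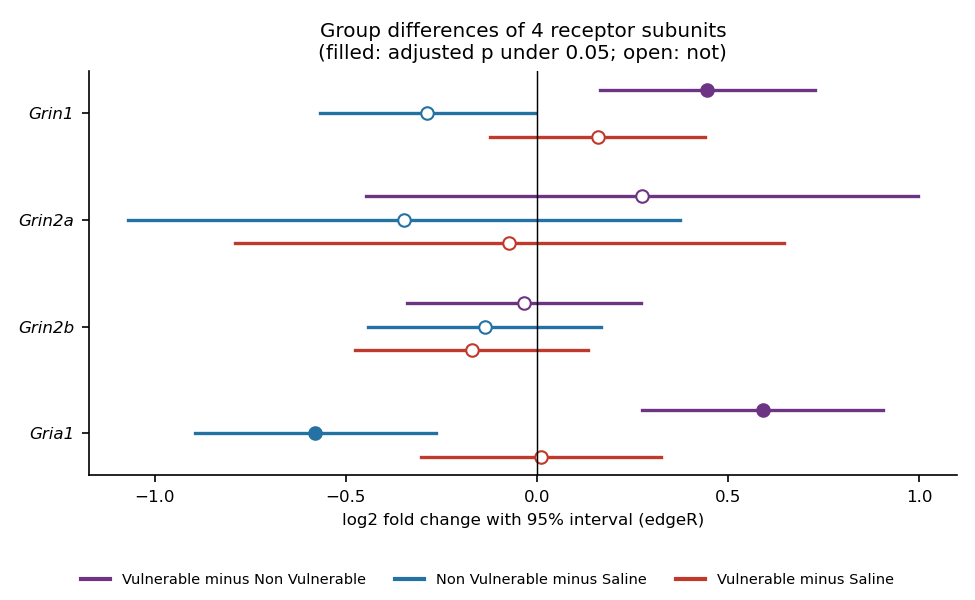
Log2 fold change of each subunit (points) with its 95% interval (lines) in the 3 comparisons; filled points have an edgeR adjusted p under 0.05. The filled points are Gria1 and Grin1 for Vulnerable minus Non Vulnerable and Gria1 for Non Vulnerable minus Saline, and the intervals of Grin2a are the widest.

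Set against the whole transcriptome, 2 of 4 members were called higher in Vulnerable than in Non Vulnerable rats and 0 lower, where 31.5% of genes were called, 15.1% as higher and 16.4% as lower. Their median log2 fold change was 0.36, against -0.04 over all genes. Groups did not overlap for Gria1 and Grin1, as for 46.7% of all genes. Non-overlap and calls were thus frequent between these groups, and whether 2 of 4 genes is particular to glutamate receptors was not tested.

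Between Non Vulnerable and Saline rats, 1 of 4 members was called, Gria1, in the lower direction, where 14.7% of genes were called, 6.81% as higher and 7.86% as lower. The median log2 fold change of the members was -0.32, against 0.02 over all genes. This comparison and the previous one share the Non Vulnerable rats, so their opposite signs are not separate observations. Between Vulnerable and Saline rats, 0 of 4 members and 0% of all genes were called by edgeR, with 807 genes (5.03%) at an unadjusted p under 0.05, none of them a member. No member separated these groups, against 11.9% of all genes. DESeq2 called 30 genes and limma voom 0 in that comparison, again no member. In the test for any difference among the 3 groups, Gria1 was called (edgeR adjusted p = 0.0262), as were 21.3% of genes, and Grin1 was not (edgeR adjusted p = 0.0692). The Gria1 call in that test ended when Vulnerable rat 3, Saline rat 2, or Non Vulnerable rat 2 or 3 was left out.

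**Figure D3:**
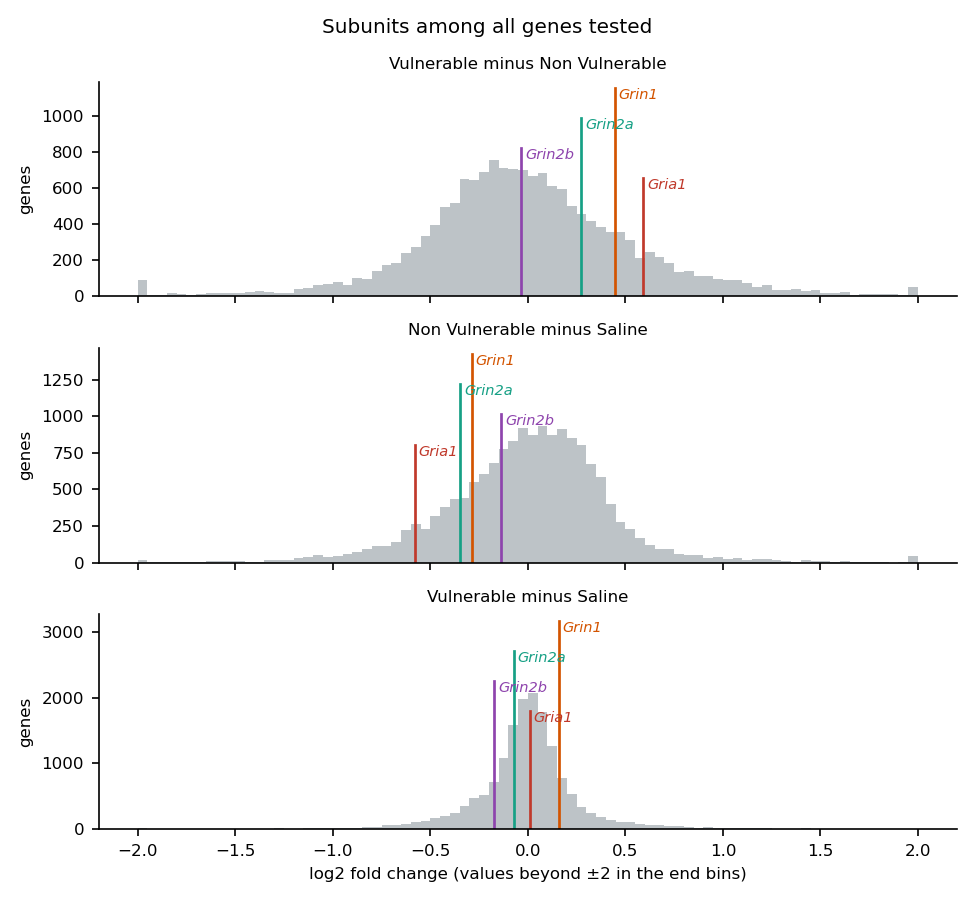
Histograms of the log2 fold change of all 16029 genes tested in each comparison, with a vertical line for each subunit (line heights only separate the names). Gria1, at 0.59 and -0.58 in the upper panels, lay inside the distribution. There 76.8% and 86.5% of genes had an absolute log2 fold change no larger. In the lowest panel Gria1 and Grin2a lay nearest 0, at 0.01 and -0.07, with Grin1 at 0.16 and Grin2b at -0.17.

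The scaling between rats moved these values without changing which members were called in the pairwise comparisons. With totals alone in place of TMM, the median log2 fold change over all genes moved from -0.04 to 0.09 for Vulnerable against Non Vulnerable, and from 0.02 to -0.09 for Non Vulnerable against Saline rats. The calls of the first comparison then split into 3282 higher and 896 lower, against 2419 and 2631, and those of the second into 117 higher and 1857 lower, against 1091 and 1260. Leaving out the 10 most counted genes split the second into 663 higher and 1551 lower. Gria1 had log2 fold changes of 0.71 and -0.69 with totals alone, and Grin1 had 0.56 and -0.39, all larger in size than with TMM by about the shift of the median. Grin2b for Vulnerable against Non Vulnerable rats turned from -0.03 to 0.08.

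Among the Vulnerable rats, rat 1 had the lowest and rat 2 the highest level of every member, an order shared by 26.5% of all genes tested. The other groups had no order common to the 4 members. The SD of log2 CPM among Vulnerable rats was 0.26 for Gria1 and 0.22 for Grin1, whereas the SD of the log2 ratio of Gria1 to Grin1 counts was 0.04. Across Non Vulnerable and Saline rats that ratio had SDs of 0.15 and 0.15. Among Vulnerable rats the log2 ratios of Gria1 and Grin1 to Grin2b had SDs of 0.05 and 0.08, and the 3 ratios that involve Grin2a had SDs of 0.27 to 0.34, as wide as the levels of Gria1 and Grin1 themselves.

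A ratio of 2 members within a rat does not depend on library totals or scaling. Its size depends on transcript lengths, so only differences between rats can be read from it. Counts of Gria1 per count of Grin2b were 9.78, 9.39 and 9.07 in Vulnerable rats 1 to 3. The ratio stood at 6.49, 5.61 and 6.22 in the Non Vulnerable and 8.71, 8.63 and 7.47 in the Saline rats. The 3 groups did not overlap, with Non Vulnerable rats lowest and Vulnerable rats highest. The lowest Vulnerable value, 9.07, was close to the highest Saline value, 8.71. Neither gene was called between those groups (log2 0.01 for Gria1 and -0.17 for Grin2b). Of single genes, 11.9% did not overlap between Vulnerable and Saline, 46.7% between the cocaine groups and 35% between Non Vulnerable and Saline. The share for ratios was not computed.

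The ratio of Gria1 to Grin2b was 1.54-fold higher in Vulnerable than in Non Vulnerable rats, and its log2 value was 0.19 higher in Vulnerable than in Saline rats. Between the cocaine groups Gria1 alone differed by 0.59 on the log2 scale and Grin2b by -0.03. The ratio there mostly repeats the Gria1 difference in the same counts and is not separate support for it. An exact permutation test over all 1680 assignments of rats to the 3 groups gave p = 0.00357, the smallest that this design allows (0.0214 adjusted over the 6 ratios). That test asks for any difference among the 3 groups, not for Vulnerable against Saline rats alone. For pairs of groups the exact two-sided permutation p was 0.1 in each comparison, the smallest that 3 rats against 3 allow. This ratio kept an adjusted p under 0.05 with each rat left out except Vulnerable rat 1, without which its exact p was 0.0107 (0.0643 adjusted over the 6 ratios).

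Counts of Grin1 per count of Grin2b were 12.1, 11.04 and 11.1 in Vulnerable, 7.98, 7.29 and 9.34 in Non Vulnerable and 8.55, 9.48 and 9.01 in Saline rats. Vulnerable rats lay above all others, and Non Vulnerable and Saline rats overlapped. Between the cocaine groups this ratio mostly repeats the Grin1 difference (log2 0.45, against -0.03 for Grin2b). The exact permutation p over the 3 groups was 0.0107 (0.0321 adjusted over the 6 ratios). Leaving out Vulnerable rat 1 gave an exact adjusted p of 0.075, leaving out Non Vulnerable rat 2 gave 0.0643 and leaving out Saline rat 2 gave 0.0536.

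Counts of Gria1 per count of Grin1 were 0.807, 0.850 and 0.817 in Vulnerable, 0.813, 0.770 and 0.666 in Non Vulnerable and 1.02, 0.911 and 0.829 in Saline rats. Non Vulnerable rats lay below Saline rats and overlapped Vulnerable rats. The exact permutation p was 0.0214 (0.0429 adjusted over the 6 ratios). That result held with Non Vulnerable rat 1 or Saline rat 3 left out, and ended with any one of the other rats left out, where exact adjusted values ran from 0.0857 to 0.164.

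The 3 ratios that involve Grin2a gave exact permutation p of 0.607 to Gria1, 0.736 to Grin1 and 0.729 to Grin2b (each 0.736 adjusted over the 6 ratios). Counts of Grin2a per count of Grin2b, the balance of the GluN2 subunit mRNAs, ran from 0.485 to 0.703 in Vulnerable, 0.398 to 0.561 in Non Vulnerable and 0.383 to 0.817 in Saline rats. All 3 groups overlapped. The 6 ratios share genes and are not independent, and ratios of other genes were not computed.

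**Figure D4:**
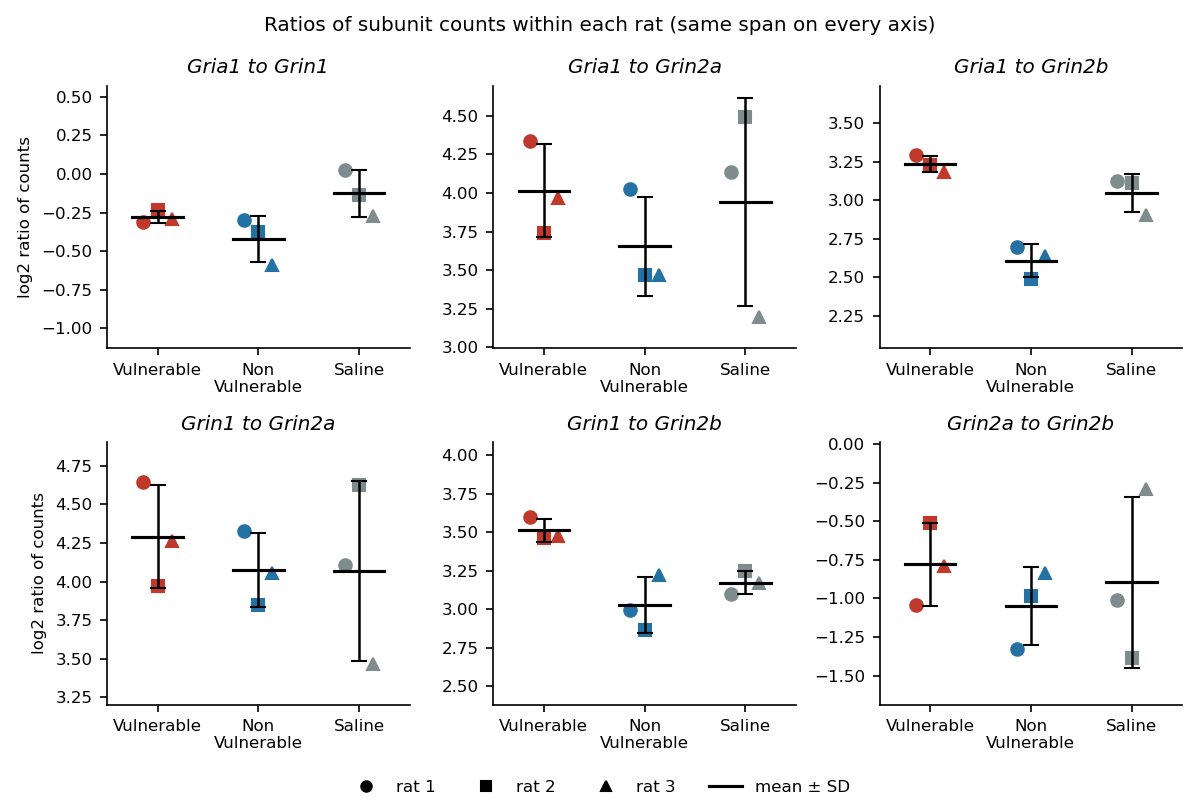
Log2 ratio of the counts of each pair of subunits within a rat, by group, with the mean ± SD; every axis spans the same number of log2 units. The ratio of Gria1 to Grin2b separates all 3 groups, narrowly for Vulnerable and Saline rats. Grin1 to Grin2b sets Vulnerable rats above the rest, and ratios with Grin2a overlap.

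**Figure D5:**
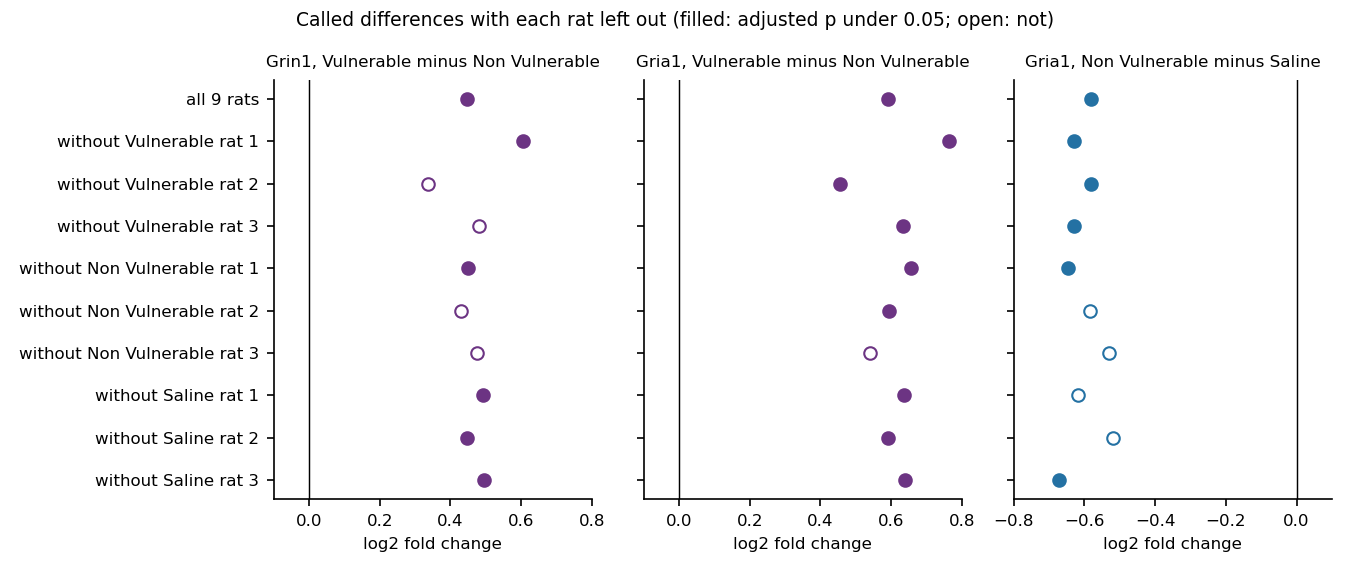
Log2 fold change of the 3 called differences with all 9 rats and with each rat left out; filled points have an edgeR adjusted p under 0.05. No fit changed direction, and open points show the rats without which a call ended, 4 for Grin1, 1 for Gria1 between cocaine groups and 4 for Gria1 against Saline.

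Genes with a pattern like that of each member were sought by Pearson r of log2 CPM over the 9 rats, among 13723 other genes with a mean of at least 1 CPM. The rats share their groups, so the values are given as a description, and the number of such genes for a typical gene was not computed. Gria1 had 441 genes with r above 0.9 and 350 below -0.9, and Grin1 had 363 and 150. Grin2b had 17 and 1, and Grin2a had 7 and 10.

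The gene most like Gria1 was ENSRNOG00000002053 (r = 0.989), with means of 76.4 ± 13.5 CPM for Vulnerable, 46.2 ± 5.72 CPM for Non Vulnerable and 74.4 ± 8.20 CPM for Saline rats (SD, n = 3). The gene most like Grin1 was ENSRNOG00000023985 (r = 0.993), and its group means spanned 20.0 to 23.3 CPM, a smaller relative range than that of Grin1. ENSRNOG00000013314 was most like Grin2b (r = 0.955) and ENSRNOG00000020468 most like Grin2a (r = 0.95).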

How the data were processed

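The deposited values are raw counts of reads for each Ensembl gene, made by the authors, with 1 table for each of 36 libraries. Tools named are bcl2fastq 2.17.1.14, STAR and HTSeq 0.5.3, per the submitters' processing notes. The sources used here give no build, annotation or strand setting, and reads of overlapping or antisense genes cannot be told apart. The pairing of the 4 IDs with gene names came with the choice of genes, and the RefSeq table paired 0 IDs. The planned lists of other glutamate receptor genes and cell type markers could not be matched.

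Counts of technical replicates were summed per rat. Genes kept by filterByExpr were scaled with TMM and fitted with edgeR 4.0.16 (glmQLFit, robust) in R 4.3.3, 1 coefficient per group, with Benjamini-Hochberg adjustment over all genes. A prior count of 2 was used for log2 CPM. The fit gives a gene 1 spread for all groups. DESeq2 1.42.0 and limma 3.58.1 were alternatives. The procedure was run on simulated data with few changed genes and no correlation between genes, a setting unlike these data. The outcome is not reported here. Labels number the rats within groups, and they are taken as separate animals. Named genes are the 4 members and, for each, the 1 gene of highest r. Members and lists were chosen with earlier results of these data known.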

Additional observations from a re-analysis of the deposited data

How the results depend on the processing

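Calls in the 3 pairwise comparisons (2, 1 and 0 members) were the same under median-of-ratios scaling, totals alone, removal of the 10 most counted genes, no filter, DESeq2, limma voom and fits of only the groups compared. In the test among 3 groups, 2 members were called with totals alone or DESeq2. With 1 rat left out, members called ran from 0 to 2 for Vulnerable against Non Vulnerable, 0 to 1 for Non Vulnerable against Saline and 0 to 2 among 3 groups, and ratios past the threshold from 0 to 3. Members called for Vulnerable against Saline were 0 in each of these fits. Counts over all genes ran from 2798 (Non Vulnerable rat 2 left out) to 5841 for the first comparison and from 251 (Saline rat 2 left out) to 3615 (Non Vulnerable rat 1 left out) for the second. DESeq2 called 6065 genes in the first comparison, against 5050. For Non Vulnerable against Saline they were 3747 with DESeq2 and 1164 with only these groups, against 2351. For Vulnerable against Saline they were 30 with DESeq2 and 1 with totals alone, against 0.

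Only values that were not called changed sign, and the cause was not tested. Grin2b for Vulnerable against Non Vulnerable was 0.0788 with totals alone, 0.0122 without the 10 most counted genes and 0.0146 with only these groups. With 1 rat left out it ran from -0.168 to 0.161, above 0 for Vulnerable rat 1, Non Vulnerable rat 2 and Saline rats 1 and 3. Grin2a for Vulnerable against Non Vulnerable ran from -0.0220, when Vulnerable rat 2 was left out, to 0.568. For Vulnerable against Saline, Grin2a ran from -0.370 to 0.319 with 1 rat left out, above 0 for Vulnerable rat 1 and Saline rat 3. Gria1 there was -0.00242 with limma voom and ran from -0.125 to 0.134 with 1 rat left out, below 0 for Vulnerable rat 2 and Saline rat 3. All are log2 differences.

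Rats with the same number did not strongly deviate together (r from -0.137 to 0.19 over 9 pairs of rats). Rats with different numbers had r from -0.239 to 0.191. With few rats these values cannot settle whether the numbers pair rats, and the main fits did not pair them. With the rat number as a block, 5160, 2453 and 0 genes and 2, 1 and 0 members were called.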
